A study of Mus musculus with 6 samples.

Results

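The genes described here are 8 rows of the count tables: the MHC class II chain genes H2-Aa, H2-Ab1 and H2-Eb1, the peptide-exchange gene H2-DMa, the invariant chain gene Cd74, the transactivator gene Ciita, the Langerhans cell lectin gene Cd207 and the leukocyte phosphatase gene Ptprc. They were chosen by symbol from 24453 symbols, with the difference of these same libraries between the groups already known, so their values in that comparison are given as a description and are not a test. All 8 had reads, and 7 of them passed the filter on low counts, Cd207 being the exception. The question was whether H2-Ab1 moves with its partner genes and with markers of leukocytes.

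RNA was measured in 6 libraries of cells labelled as hair follicle sorted from back skin of mice at birth (postnatal day 0), 3 named only as control and 3 of the genotype Ring1a-/- Ring1b-/I53A. Ring1a (gene Ring1) and Ring1b (gene Rnf2) are the ubiquitin ligases of Polycomb repressive complex 1, and I53A is known to impair that activity of Ring1b. The mutant joins loss of Ring1a, a null allele of Ring1b and the I53A allele, and no group separates them. The alleles that the controls carry, the strain, any Cre line and whether the libraries of a group came from separate animals are not stated in the labels, so p-values measure the spread between these libraries, which may be technical. Control 3 stood apart from the other controls in leukocyte and mast cell transcripts, and results that rest on it are also given without it. Of the mutants, mutant 3 likewise held the most pan-leukocyte and mast cell transcript, so that both libraries numbered 3 were high.

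Class II molecules are pairs of an alpha and a beta chain that show peptides from the endosome to CD4 T cells. H2-Aa encodes the alpha and H2-Ab1 the beta chain of the A molecule, and neither chain is stable at the surface without its partner. Their genes share a promoter module of X and Y boxes that RFX, CREB and NF-Y factors occupy and that CIITA activates, so that chain genes, Cd74 and the H2-DM genes are usually transcribed together. In skin they are best known from Langerhans cells, the dendritic cells of the epidermis, whose precursors at birth have yet to gain full class II and langerin (Cd207), while keratinocytes make class II chiefly in response to interferon gamma.

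The promoters of 2 partner chains and of the neighbouring class I gene H2-K1 are shown because the class II module, with its Y box, is what these genes are known to share. Each is the 250 bases before the transcription start in RefSeq (GRCm38.p6), read 5′ to 3′ on the gene's strand. Capitals mark the letters CCAAT, searched on both strands (ATTGG on the other) as the core of the Y box, and TGACGTCA, the palindromic site of CREB factors; the motifs do not overlap each other here.
H2-Aa: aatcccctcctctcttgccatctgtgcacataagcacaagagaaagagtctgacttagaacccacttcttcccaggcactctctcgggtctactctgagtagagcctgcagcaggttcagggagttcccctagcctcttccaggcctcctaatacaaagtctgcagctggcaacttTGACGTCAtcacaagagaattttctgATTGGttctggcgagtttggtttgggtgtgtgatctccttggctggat
H2-Eb1: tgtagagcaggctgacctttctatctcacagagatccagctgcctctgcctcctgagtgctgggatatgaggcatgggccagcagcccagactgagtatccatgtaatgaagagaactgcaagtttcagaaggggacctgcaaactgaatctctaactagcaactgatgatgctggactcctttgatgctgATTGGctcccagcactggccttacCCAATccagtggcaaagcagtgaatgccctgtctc
H2-K1: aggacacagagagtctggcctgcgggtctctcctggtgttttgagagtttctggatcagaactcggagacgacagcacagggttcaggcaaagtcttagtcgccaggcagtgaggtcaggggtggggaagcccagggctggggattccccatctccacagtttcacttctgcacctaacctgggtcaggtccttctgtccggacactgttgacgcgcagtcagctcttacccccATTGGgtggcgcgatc
The H2-Aa window lies at chr17:34287824-34288073 (minus strand), that of H2-Eb1 at chr17:34305617-34305866 (plus strand) and that of H2-K1 at chr17:34000348-34000597 (minus strand).

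In H2-Aa, ATTGG began 48 bases and TGACGTCA 74 bases before the start. H2-Eb1 held ATTGG 59 bases and CCAAT 35 bases before the start, and no TGACGTCA. CCAAT on either strand was found in 33.8% and TGACGTCA in 1.55% of the 32851 promoter windows of the table. H2-Aa held 3 and H2-Eb1 held 0 CG pairs, against 9 in H2-K1 and a median of 6 over all windows. Of the 8 genes, 5 had a window in this table; H2-Ab1, Cd74 and Ciita did not. The windows of Ptprc and Cd207 held neither motif. H2-DMa has 2 windows, with 27 and 0 CG pairs, of which the second held ATTGG 198 bases before its start.

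H2-Ab1 was higher in each mutant library than in any control, while the other class II chain genes were not. H2-Ab1 (ENSMUSG00000073421.6, chromosome 17, 34257689 to 34269419, plus strand, GRCm38) had 85, 27 and 130 reads in controls 1 to 3 and 287, 410 and 314 reads in mutants 1 to 3. In CPM, counts scaled to library size, these were 5.79, 1.69 and 7.38 against 15.7, 24.5 and 20.99. The lowest mutant was above the highest control, an arrangement that 12.1% of all tested genes showed. Control 2 was furthest down and mutant 2 highest. The mean was 4.96 ± 2.93 CPM in controls and 20.4 ± 4.39 CPM in mutants (SD, n = 3 each), 4.10-fold, a log2 fold change of 2.04 (SE 0.46). Of the 8 genes it was the 1 that passed the threshold of the fit over all genes, an adjusted p under 0.05 in the edgeR quasi-likelihood test, where 2.59% of all 14345 tested genes passed as higher in mutants, 0.404% as lower and 3.0% in either direction. With the replicate number as a block it was also the 1 gene to pass, where 6.09% of all genes passed as higher and 9.38% in either direction. With DESeq2 6.88% of all genes passed, and 14.9% had an unadjusted p under 0.05 in edgeR. With limma-voom 424 of the 14345 genes passed. Counts of the gene lists are to be read against these values. The call is narrow: the adjusted p of edgeR was 0.0476, and without control 1, mutant 1, mutant 2 or mutant 3 it was 0.132, 0.092, 0.174 and 0.0958, with log2 fold changes of 1.89 to 2.19. In bulk libraries, a change in the number of cells of a type and a change in RNA per cell cannot be told apart.

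**Figure D1:**
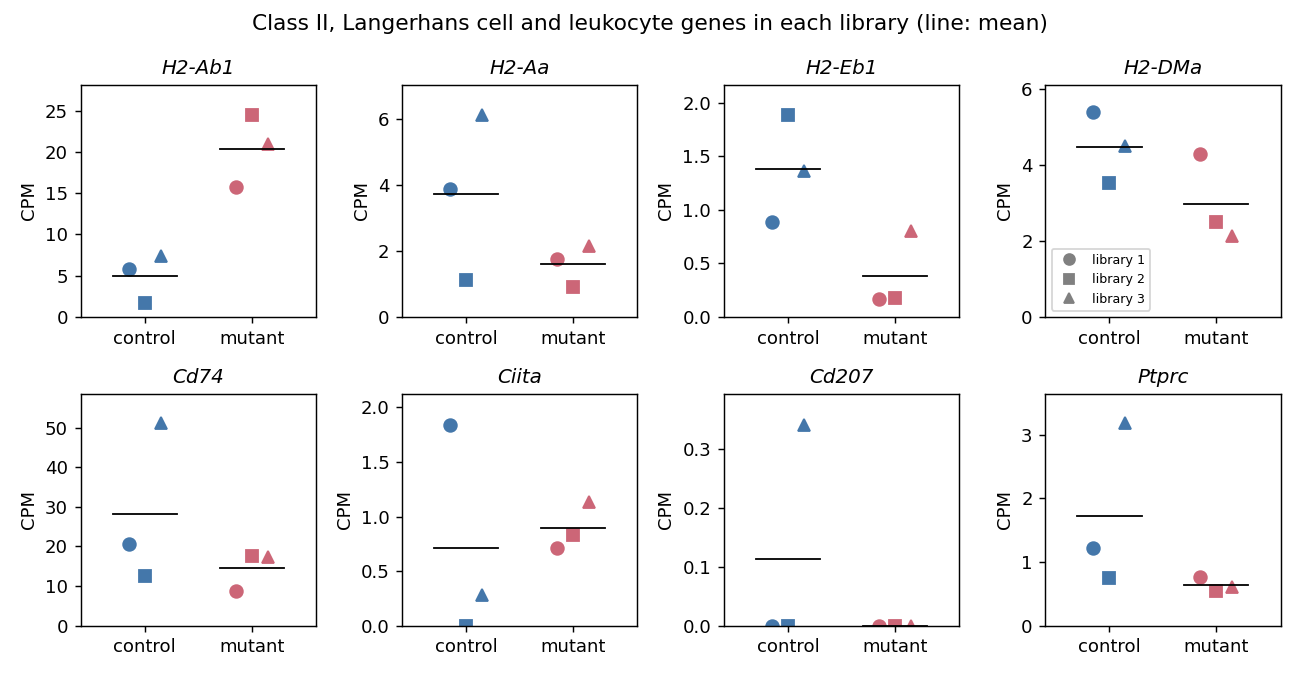
CPM of the 8 genes in each library, 1 panel a gene, with linear axes from 0; symbols mark library 1, 2 and 3 of a group and the line is the group mean. H2-Ab1 lies at 15.7 to 24.5 CPM in mutants and at 1.69 to 7.38 CPM in controls, while the control libraries with the most Cd74 and Ptprc lie above every mutant.

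The partner chain H2-Aa (chromosome 17, 34282744 to 34287823, minus strand), which lies 13.3 kb from H2-Ab1, had 57, 18 and 108 reads in controls and 32, 15 and 32 reads in mutants. That was 3.88, 1.13 and 6.13 CPM against 1.75, 0.894 and 2.14 CPM. Controls 1 and 3 were above every mutant and control 2 lay among them, so the groups overlapped. Its log2 fold change was -1.22 (SE 0.67) and it did not pass. H2-Eb1 (34305867 to 34316674, plus strand), the beta chain of the E molecule, had 13, 30 and 24 reads in controls and 3, 3 and 12 reads in mutants, or 0.886, 1.88 and 1.36 against 0.164, 0.179 and 0.802 CPM. Every mutant library was below every control, an arrangement that 9.15% of all tested genes showed, and the log2 fold change of -1.85 (SE 0.84) did not pass. The 3 reads of mutants 1 and 2 are close to the detection limit, so the size of this fall is uncertain.

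H2-DMa, the alpha chain of the molecule that loads peptides onto class II (34119541 to 34139101, plus strand), was at 5.38, 3.51 and 4.48 CPM in controls and 4.28, 2.50 and 2.14 CPM in mutants. The groups overlapped, with a log2 fold change of -0.58 (SE 0.45). Its annotated body overlaps Brd2 on the other strand over 3094 bases, and the strand setting of the counting is not stated, so reads of this pair cannot be told apart. Cd74, the invariant chain that guides class II to the endosome (on chromosome 18), was at 20.7, 12.4 and 51.1 CPM in controls and 8.77, 17.6 and 17.4 CPM in mutants. Control 3 stood far above the other 5 libraries, which overlapped. The log2 fold change was -0.95 (SE 0.48), and -0.18 without control 3.

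Ciita, which switches the class II promoters on (chromosome 16, 10480059 to 10528418, plus strand), was close to the detection limit. It had 27, 0 and 5 reads in controls and 13, 14 and 17 reads in mutants, or 1.84, 0 and 0.284 against 0.713, 0.835 and 1.14 CPM. The mutant libraries were alike and lay inside the control range, with a log2 fold change of 0.35 (SE 1.13). A count of 0 allows up to 3 reads, which was 0.164 to 0.204 CPM in these libraries, for counting error only, since amplified reads are not independent molecules. Ciita overlaps Dexi on the other strand. Without control 1 its log2 fold change was 2.56 and without control 2 it was -0.23, so a direction cannot be read from it.

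The leukocyte genes were not higher in mutants. Ptprc, the CD45 phosphatase of all leukocytes (chromosome 1, 138062861 to 138175708, minus strand), had 18, 12 and 56 reads in controls and 14, 9 and 9 reads in mutants, or 1.23, 0.753 and 3.18 against 0.767, 0.537 and 0.602 CPM. Control 3 was highest, and control 2 lay just below mutant 1, so the groups overlapped. The log2 fold change was -1.43 (SE 0.74), and -0.62 without control 3. Cd207 (chromosome 6, 83671215 to 83677857, minus strand), the langerin of Langerhans cells, had 6 reads, all in control 3, and 0 reads in the other 5 libraries. It was not tested.

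Per length of gene model, Cd74 and H2-Ab1 had the highest group means. With the exons of all annotated transcripts merged, control means were 16.7 CPM per kb for Cd74, 1.93 for H2-Ab1, 1.29 for H2-DMa, 0.978 for H2-Aa, 0.708 for H2-Eb1, 0.0939 for Ptprc, 0.0746 for Cd207 and 0.0742 for Ciita. In mutants they were 8.68 for Cd74, 7.94 for H2-Ab1, 0.862 for H2-DMa, 0.420 for H2-Aa, 0.196 for H2-Eb1, 0.0938 for Ciita, 0.0347 for Ptprc and 0 for Cd207, so that Ciita stood above Ptprc there. In controls the ranges over libraries of H2-Ab1 and H2-DMa, of H2-DMa and H2-Aa, and of H2-Aa and H2-Eb1 overlapped, so that these neighbours did not differ beyond their spread. In mutants H2-Ab1 overlapped Cd74 alone. The ratio of H2-Ab1 to H2-Aa per kb was 2.21, 2.22 and 1.78 in controls and 13.3, 40.4 and 14.5 in mutants. That to Cd74 was 0.183, 0.0892 and 0.0943 in controls and 1.17, 0.909 and 0.790 in mutants. Merged exons make H2-Aa 3798 and H2-Ab1 2568 bases long. By their principal transcripts of 1128 and 1212 bases the control means were 4.09 CPM per kb for H2-Ab1 and 3.29 for H2-Aa, and the mutant means 16.8 and 1.41. In mutants the mean of H2-Ab1 was then above that of Cd74 (10.3), and in controls it was below (4.09 and 19.9). By this length the mean of H2-Aa was also above that of H2-DMa in controls (2.69) and below it in mutants (1.79). Ciita (0.149) and Ptprc (0.135) overlapped in mutants by this length, so their order there rests on the merged exons.

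Within the controls, H2-Ab1 and H2-Aa held nearly the same proportion although both varied several-fold. The log2 ratio of H2-Ab1 to H2-Aa reads, with 0.5 added to both, was 0.57, 0.57 and 0.27 in controls and 3.145, 4.73 and 3.28 in mutants. Control 3 had the most and control 2 the least H2-Ab1, H2-Aa, Cd74 and Ptprc of the controls. Mutant 2 had the most H2-Ab1 and Cd74 and the least H2-Aa and Ptprc of the mutants. The log2 ratio to Ptprc went from 1.52 ± 0.60 to 4.93 ± 0.57, that to Cd74 from -2.49 ± 0.57 to 0.53 ± 0.29, that to H2-DMa from -0.07 ± 0.89 to 2.81 ± 0.81 and that to H2-Eb1 from 1.64 ± 1.56 to 5.96 ± 1.16 (SD, n = 3 each). Controls and mutants were apart in all 5 of these ratios, as was so for 83.3% of all genes set against H2-Ab1, H2-Ab1 being the common numerator. That share is the background against which the 5 are read. The mutant ratio to H2-Eb1 rests on 3, 3 and 12 reads of H2-Eb1, so its size is uncertain. The ratio to Ciita overlapped between groups (3.995 ± 2.13 and 4.47 ± 0.33).

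**Figure D2:**
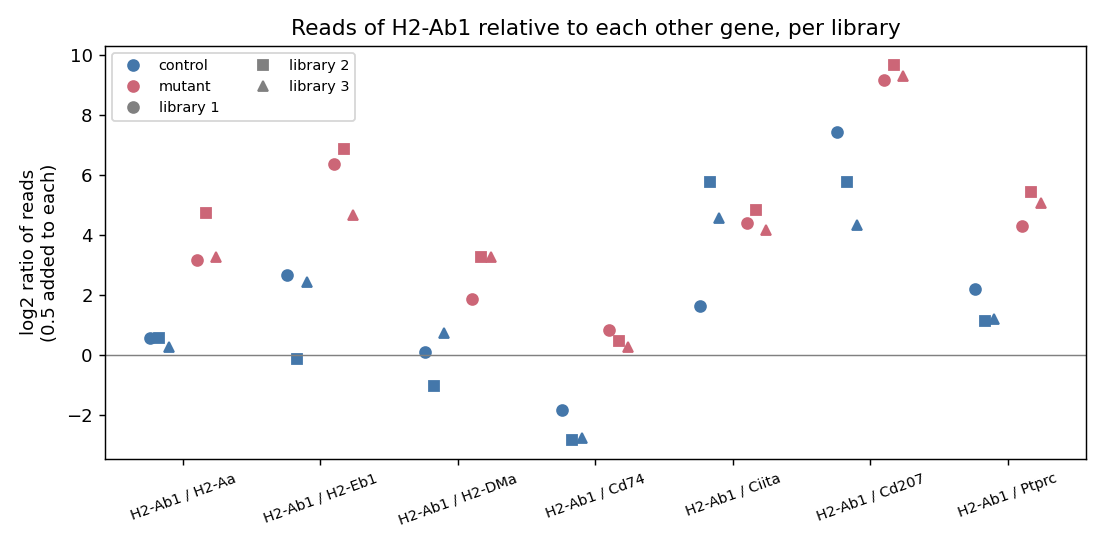
Log2 ratio of H2-Ab1 reads to the reads of each of the other 7 genes, with 0.5 read added to both, per library; blue is control, red is mutant and symbols give the library number. The control ratios to H2-Aa lie between 0.27 and 0.57 and the mutant ones between 3.145 and 4.73, whereas the ratios to Ciita overlap.

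The spread inside a group was itself uneven. The SD of log2 CPM of H2-Ab1 was 1.096 over the controls and 0.32 over the mutants. H2-Aa (1.198 and 0.60), Cd74 (1.03 and 0.57) and Ptprc (0.98 and 0.22) also varied more over the controls, H2-Eb1 (0.50 and 0.95) and H2-DMa (0.30 and 0.50) less. Pooled over both groups, the SD of Cd74 (0.83) was above that of 98.2% of the 2072 tested genes within 0.5 log2 units of its mean level, and that of H2-Ab1 (0.81) above 94.4% of 1797 such genes. For H2-Eb1 and Ptprc the shares were 30.0% and 32.9%. Patterns like that of H2-Ab1 were sought by the smallest root mean square difference in centred log2 CPM over the 6 libraries. Among genes with a mean of at least 1 CPM, Sult4a1 (0.12), Tspan17 (0.16), Dact3 (0.17), Fam219a (0.22) and Jph1 (0.23) were most like it. Sult4a1 had only 6, 1 and 10 reads in controls. Among all 14345 tested genes, whatever their level, Ciita ranked 1632 and the other 5 tested genes of the 8 ranked between 11753 and 14196.

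Of 22 other listed genes of the class II pathway, 21 are in the files, 15 were tested and none was called by edgeR, by DESeq2 or by limma-voom (1 had an unadjusted p under 0.05), with a median log2 fold change of 0.06 against -0.003 over all genes. A count of 0 among 15 is near the 3.0% called over all genes. H2-DMb1, the partner of H2-DMa, had 22 control and 25 mutant reads, and H2-DMb2 had 3 and 3. H2-Oa, a chain of the H2-DM inhibitor H2-O, had 10 and 7 reads, and H2-Ea-ps, the E alpha chain that is a pseudogene in the reference strain, 1 and 1. H2-Eb2 and H2-Ob were at 0 in all 6 libraries. The proteases that open the invariant chain and antigens were at 1.34 and 1.94 CPM (Ctss), 166 and 182 CPM (Ctsl), 203 and 200.1 CPM (Ctsb) and 10.1 and 11.3 CPM (Lgmn) in controls and mutants. Ifi30, the endosomal thiol reductase, was at 33.4 and 27.1 CPM.

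The promoter factors of class II were present in both groups. Rfx5 was at 53.9 and 58.6 CPM, Rfxap at 12.4 and 12.9, Rfxank at 4.93 and 5.17, Nfyb at 40.6 and 32.4, Nfyc at 13.5 and 12.3, and Creb1 at 184 and 140 CPM. Nfya, the subunit of NF-Y that contacts CCAAT, was at 110 and 79.9 CPM and passed as lower with the replicate block alone (edgeR adjusted p = 0.307, and 0.0334 with the block, with which 3.29% of all genes passed as lower). March1 and March8, ligases that remove class II from the surface, were at 3.10 and 1.70 CPM and at 24.5 and 30.01 CPM. Cd83, which opposes that removal, was at 0.558 and 1.81 CPM (log2 fold change 1.69, SE 0.77, edgeR adjusted p = 0.344). Mutant 3 (0.535 CPM of Cd83) lay inside the control range. The control mean of March1 rests on control 2 (5.71 CPM, with controls 1 and 3 at 2.18 and 1.42 CPM).

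**Figure D3:**
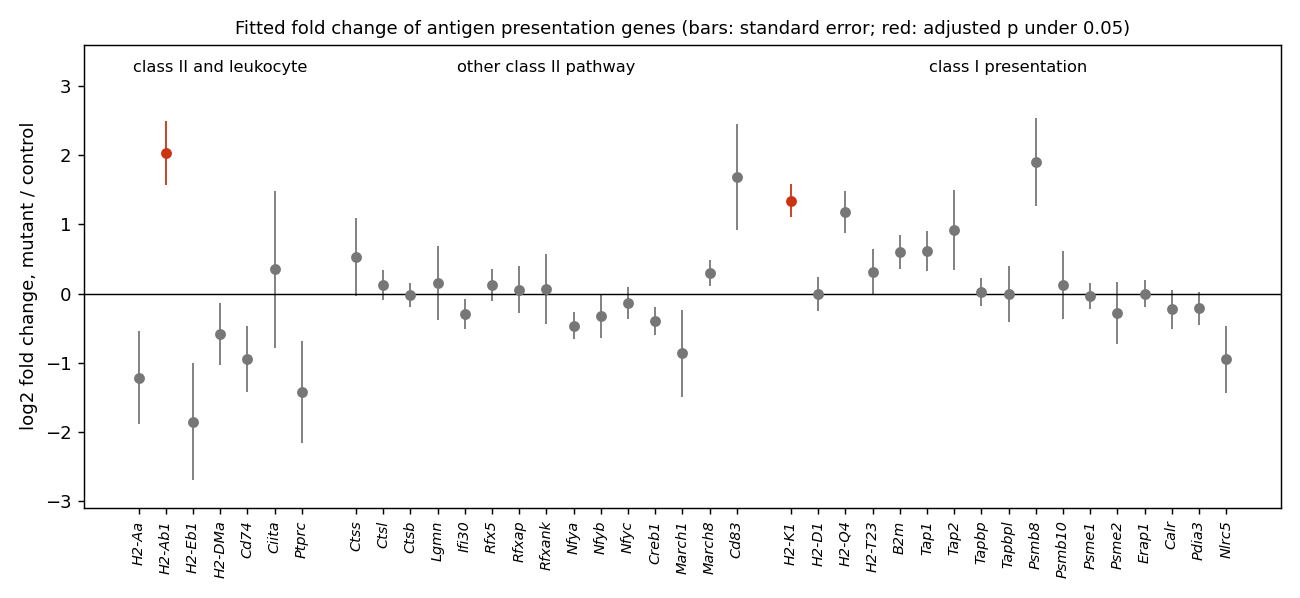
Log2 fold change (mutant over control) with its standard error for the tested genes among the 8, the other class II pathway genes and the class I genes; red marks an edgeR adjusted p under 0.05. H2-Ab1 (2.04) and H2-K1 (1.35) are red, and H2-Aa (-1.22) and H2-Eb1 (-1.85) lie on the other side of 0 from H2-Ab1.

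Among genes of class I presentation, H2-K1 rose. Of 24 listed, 17 were tested and 1 was called, against 3 with the replicate block and 3 with DESeq2, where 3.0%, 9.38% and 6.88% of all genes were called (4 had an unadjusted p under 0.05, median log2 fold change 0.02). H2-K1, a classical class I heavy chain (33996017 to 34000347, minus strand), was at 30.05, 30.6 and 17.3 CPM in controls and 57.9, 66.9 and 73.3 CPM in mutants. Every mutant was above every control, as in 12.1% of all genes, with a log2 fold change of 1.35 (SE 0.24, edgeR adjusted p = 0.0176). The adjusted p was 0.0557 without control 1 and 0.0744 without mutant 2. H2-Q4 (5.33 and 12.1 CPM, adjusted p of edgeR 0.0758) and B2m, the class I light chain (64.04 and 96.9 CPM, 0.290), passed with the replicate block (0.0268 and 0.0476), and H2-Q4 also with DESeq2 (0.0102). Psmb8, an immunoproteasome subunit, was at 1.19 and 4.46 CPM (0.175). Class I heavy chains are near-identical over long stretches, so reads of H2-K1 and H2-Q4 may be shared with relatives.

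H2-K1, Ring1 and the class II genes lie in 1 stretch of chromosome 17. Ring1, whose loss is part of the mutant genotype, ends 233 kb before H2-Ab1 and H2-K1 ends 257.3 kb before it. The transcript of Ring1 was at 16.8, 22.1 and 21.1 CPM in controls and 3.23, 7.10 and 4.88 CPM in mutants (log2 fold change -1.98, SE 0.33, edgeR adjusted p = 0.0113). Of the 61 genes in the files within 500 kb of H2-Ab1, 39 were tested, 1 was called higher (H2-K1) and 1 lower (Ring1) by edgeR, against 2.59% and 0.404% of all genes, with a median log2 fold change of -0.01. DESeq2 called 3 of them, against 6.88% of all genes. The nearest tested genes before H2-Ab1 were Tap2 (2.54 and 4.78 CPM), Psmb8 and Tap1 (13.03 and 19.96 CPM). Those after it were H2-Aa, H2-Eb1 and Notch4 (2.28 and 1.02 CPM, the control mean resting on control 2 at 5.27 CPM, with controls 1 and 3 at 0.954 and 0.624). None of these 6 was called by edgeR, and Psmb8 was called by DESeq2 (adjusted p = 0.0461). The mutated Ring1 allele and any other allele carried with it on this chromosome cannot be told apart by these groups. The strain is not stated and the H2 genes are polymorphic, so a difference in alleles and a difference in expression cannot be told apart from these counts, which the submitters' notes tie to 1 reference (mm10).

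**Figure D4:**
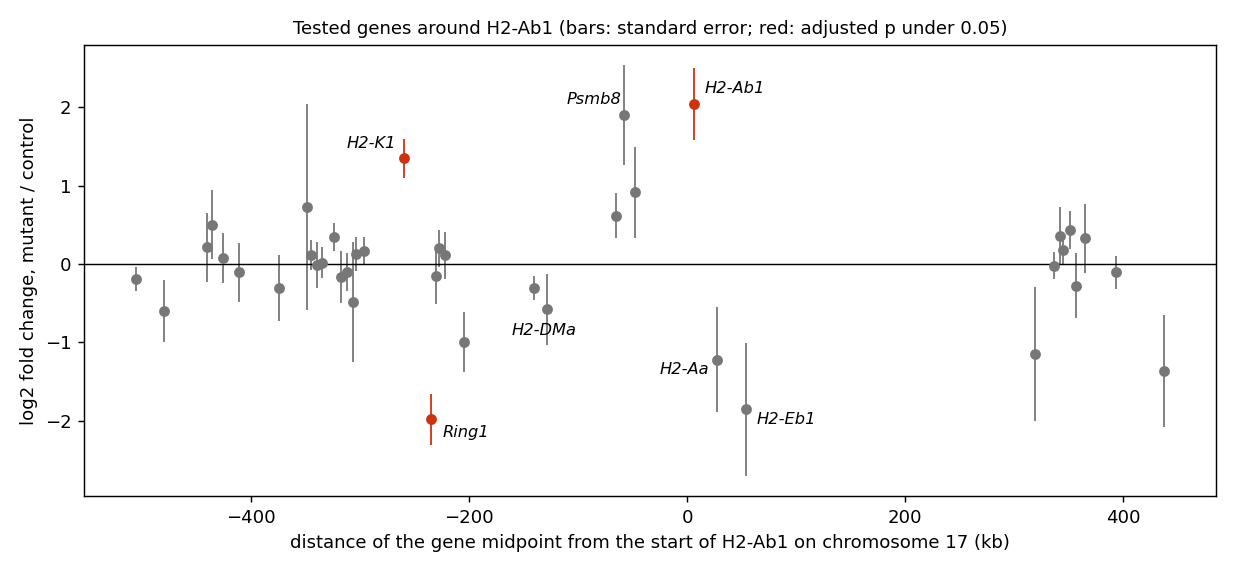
Log2 fold change with its standard error of the tested genes within 500 kb of H2-Ab1, by the distance of each gene's midpoint from the start of H2-Ab1 in kb; red marks an edgeR adjusted p under 0.05. H2-Ab1 (2.04), H2-K1 (1.35) and Ring1 (-1.98) are red, while H2-Aa and H2-Eb1, the nearest tested genes after H2-Ab1, lie below 0.

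Interferon gamma is the known inducer of class II in keratinocytes. Of 23 listed genes of the interferon gamma pathway 17 were tested and none was called by edgeR, DESeq2 or limma-voom (1 had an unadjusted p under 0.05), with a median log2 fold change of 0.09; at 3.0% called over all genes, a count of 0 among 17 is near the background. Ifng itself was at 0 in all 6 libraries, which allows up to 0.164 to 0.204 CPM. Gbp2, an interferon-induced GTPase, was at 0.281 and 1.27 CPM (log2 fold change 2.13, edgeR adjusted p = 0.208), Cxcl9 at 2.50 and 0.848 CPM (-1.55, 0.343) and Igtp at 4.52 and 2.58 CPM (-0.81, 0.525). Of 22 type I interferon response genes 12 were tested and none was called by the same 3 tools (2 had an unadjusted p under 0.05, median 0.24). A count of 0 among 12 is likewise near the 3.0% of all genes called by edgeR. Among the 12, Isg15 was at 0.237 and 1.049 CPM (adjusted p of edgeR 0.236) and Ddx58 at 16.8 and 26.1 CPM (0.154).

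Summed levels of leukocyte markers stood beside these values as follows. The 22 pan-leukocyte genes other than Ptprc all had reads and summed to 26.4, 23.7 and 68.8 CPM in controls and 23.1, 22.5 and 33.1 CPM in mutants. None of the 10 tested was called by any of the 3 tools (none had an unadjusted p under 0.05, median log2 fold change -0.47). Over all genes 3.0% were called by edgeR and 6.88% by DESeq2, so a count of 0 among 10 is near the background. The 19 macrophage genes, 18 with reads and Ly6c2 at 0, summed to 65.1, 61.9 and 85.4 CPM in controls and 41.9, 45.9 and 45.2 CPM in mutants, every mutant below every control. Without Cd68, set aside after its values were seen, the sums were 27.9, 17.6 and 56.7 CPM in controls and 19.5, 20.3 and 28.3 CPM in mutants, and the groups overlapped. Of 11 tested none was called by edgeR or limma-voom and 1 by DESeq2 (1 had an unadjusted p under 0.05, median -0.55), and Cd68, a lysosomal glycoprotein of macrophages (36.7 and 21.6 CPM, edgeR adjusted p = 0.145), passed as lower with the block (0.019) and with DESeq2. Mast cell genes summed to 13.1, 20.1 and 178.5 CPM in controls and 16.01, 17.9 and 81.1 CPM in mutants, with Cpa3 at 5.32, 12.6 and 86.2 against 6.47, 4.29 and 30.02 CPM. Control 3 thus held the most pan-leukocyte, macrophage and mast cell transcript, as it held the most Cd74, H2-Aa and Ptprc and all Cd207 reads. Without it the log2 fold change of H2-Ab1 was 2.46 (edgeR adjusted p = 0.0159) and that of H2-Aa -0.64. Mutant 3, which held the most pan-leukocyte and mast cell transcript of the mutants, stayed in that fit.

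Of the 26 further Langerhans and dendritic cell genes, 13 were tested and 2 rose, Runx3 and Mfge8, against 2.59% of all genes (median log2 fold change -0.17). DESeq2 called 3 of the list, against 6.88% of all genes. Runx3, a transcription factor that Langerhans cells need and other lineages also use, was at 2.39, 1.44 and 2.50 CPM in controls and 23.9, 30.5 and 28.01 CPM in mutants (3.70, SE 0.30, edgeR adjusted p = 0.000411). Mfge8, a secreted bridge between dying cells and integrins, was at 11.1, 9.04 and 15.2 CPM in controls and 32.3, 33.4 and 46.3 CPM in mutants (1.66, SE 0.26, edgeR adjusted p = 0.00896). For both, every mutant was above every control, as in 12.1% of all genes, while Cd207 had no read in those mutants. Mfge8 was not called without control 1 (edgeR adjusted p = 0.0525). Ly75, an endocytic receptor of dendritic cells, was at 1.48 and 5.06 CPM (edgeR adjusted p = 0.0966, and 0.0122 with DESeq2) and Irf4 at 5.76 and 2.204 CPM (0.178). Without Cd24a, which epithelial cells also make and which was set aside after its values were seen, the list summed to 53.15, 44.4 and 87.2 CPM in controls and 89.4, 100.2 and 119.1 CPM in mutants, Ccr6 being at 0. Runx3 and Mfge8, the 2 genes called, were then left out as well, after their values were seen. The rest summed to 39.7, 33.95 and 69.5 CPM in controls and 33.2, 36.3 and 44.8 CPM in mutants. The groups then overlapped, but leaving out the genes that rose favours overlap, so this is not a test.

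Of the T cell genes, Thy1 rose. Of 17 T cell genes in the files 5 were tested and 1 rose, against 2.59% of all genes. The median log2 fold change was 0.18, with 3 of the 5 above 0. Cd5 was at 13.4 and 8.54 CPM (-0.65, edgeR adjusted p = 0.419), every mutant below every control, as in 9.15% of all genes. Itgae (log2 fold change 0.50) and Lck (-0.215) were not called either. Thy1, which fibroblasts and other cells also make, rose from 9.61 ± 0.57 to 39.5 ± 15.2 CPM (SD, n = 3 each, log2 fold change 2.04, SE 0.31, edgeR adjusted p = 0.00761). Cd3g, Cd2 and Xcl1 were at 0 in all libraries. With Thy1 the list summed to 30.8, 27.7 and 30.2 CPM in controls and 42.04, 59.1 and 60.4 CPM in mutants. Without Thy1, set aside after its values were seen, the sums were 20.7, 18.8 and 20.4 CPM in controls and 19.8, 13.7 and 9.56 CPM in mutants. Leaving out the gene that rose lowers the mutant sums the most, so this is not a test. B cell genes summed to 1.08 to 4.57 CPM in controls and 0.669 to 2.50 CPM in mutants, with Ms4a1 at 0. Neutrophil genes summed to at most 2.61 CPM, with Ly6g at 0 and no gene tested. Endothelial (12.99 to 16.97 and 15.7 to 33.96 CPM) and melanocyte genes (27.2 to 41.04 and 24.4 to 49.5 CPM) had no call by edgeR, DESeq2 or limma-voom, and none had an unadjusted p under 0.05. With 4 and 6 genes tested, this is near the 3.0% of all genes called by edgeR. Of 10 tested fibroblast genes 2 rose, against 2.59% of all genes: Fbn1 and Thy1, the latter counted in both lists. The median log2 fold change was 0.12, with 6 of the 10 above 0. Col1a1 was at 131.9 and 102.4 CPM (-0.37, edgeR adjusted p = 0.632). With the replicate block 3 rose, Col6a1 being the further gene, against 6.09% of all genes. Fbn1 was at 24.1 and 87.1 CPM and was not called without control 1, mutant 1 or mutant 2, with adjusted p of edgeR up to 0.0756. The fibroblast list summed to 633 to 1089 CPM in controls and 794 to 1095 CPM in mutants. The part of these other cells in the level of H2-Ab1 was not tested.

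**Figure D5:**
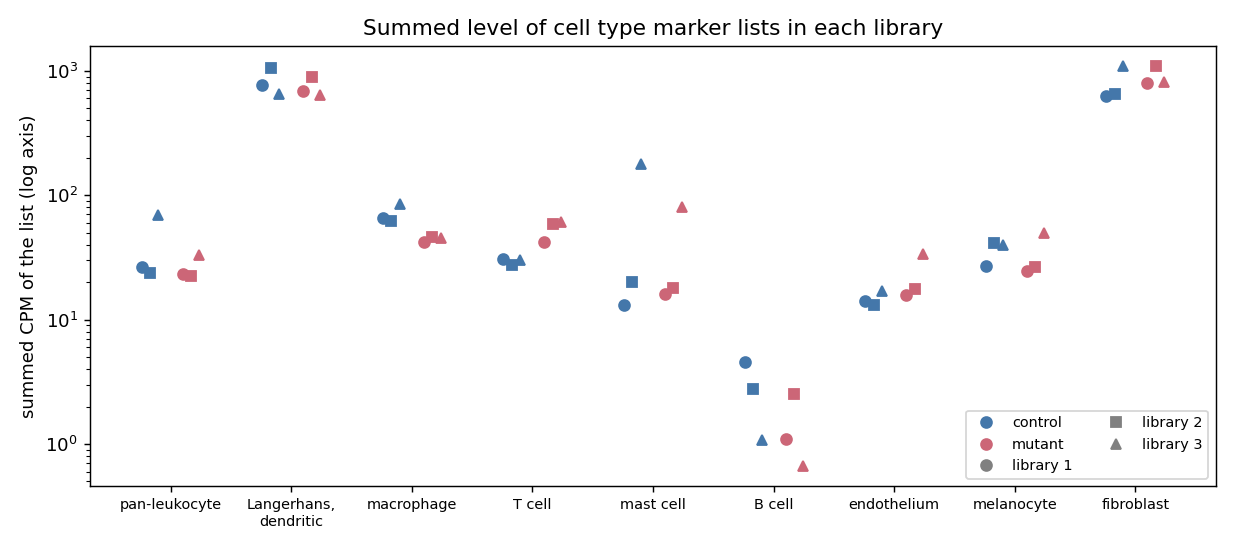
Summed CPM of 9 cell type marker lists in each library on a log axis; blue is control, red is mutant and symbols give the library number. Control 3 is highest for the pan-leukocyte (68.8 CPM), macrophage (85.4 CPM) and mast cell lists (178.5 CPM), and the macrophage list is lower in every mutant, though not without Cd68; the Langerhans list (638 to 1056 CPM) is mostly Cd24a and the T cell list includes Thy1.

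Of 22 listed keratinocyte genes that serve Langerhans and T cells, 15 were tested and 2 rose, Tgfb2 and Cxcl14 (median log2 fold change 0.36), against 2.59% of all genes, and 4 with the replicate block, against 6.09%. Tgfb2 was at 134 and 269 CPM (edgeR adjusted p = 0.0430), and Cxcl14 at 100.2 and 254 CPM (edgeR adjusted p = 0.0457). Without 1 library Tgfb2 was called in 2 and Cxcl14 in 1 of 6 fits, with adjusted p of edgeR up to 0.178 without mutant 2 and 0.159 without mutant 1. To check the label of the cells, the basal keratin gene Krt5 was at 7911 and 9845 CPM and the follicle gene Lhx2 at 334 and 248 CPM, and the sort markers Epcam (162 and 198 CPM) and Itga6 (734 and 756 CPM) were present. Ly6a, the gene of Sca1, was at 0.502 to 1.49 CPM, although the extraction protocol in the labels speaks of Sca1-positive cells of another compartment. Of the 12 tested genes of the follicle list Lgr5 and Nfib fell and none rose, where 0.404% of all genes passed as lower and 2.59% as higher. With the replicate block 3 fell and 1 rose, where 3.29% of all genes passed as lower and 6.09% as higher. Without 1 library Lgr5 was called in 3 and Nfib in 1 of 6 fits, and neither was called without control 2, mutant 1 or mutant 2. Rnf2 was at 59.8 and 67.1 CPM and was not called. Library totals ran from 14335156 to 18811587 counts.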

How the data were processed

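Each of the 6 libraries has a deposited table of raw counts by gene symbol, whole numbers whose totals differ between libraries. The submitters' processing notes name mm10 and, without their roles, DESeq2 1.6.3, HTSeq 0.6.1, TopHat2 2.0.13 and Cufflinks 2.2.1. The strand setting and the annotation release are not stated there.

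Counts went into edgeR 4.0.16 (R 4.3.3; quasi-likelihood, TMM, filterByExpr) with a term for group alone, and p-values were adjusted by Benjamini-Hochberg over 14345 genes, two-sided, called under 0.05. CPM values use TMM effective library sizes. Alternatives were other size factors, other filters, a replicate block, DESeq2 1.42.0, limma-voom (limma 3.58.1) and leaving out each library. The steps were checked on simulated data. Positions and exon lengths come from GENCODE M21 (GRCm38), which gave 23797 of 24453 symbols a position.

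The members and lists were chosen with earlier results of these data known. Genes named are the 8 members, class II pathway genes with reads, Ring1, Rnf2, the sort genes, up to 4 genes of each other list (called first, then smallest p), called and nearest neighbours of H2-Ab1, and the 5 genes most like it with at least 1 CPM.

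Both groups carry replicate numbers 1 to 3 in the labels. Libraries of 1 number deviated together from the group means, with correlations of 0.168 to 0.363, above the minimum of 0.1, so the numbers may pair the libraries. This pairing comes from the data and not from the design. The main fit and the fits without 1 library therefore leave it out, and the replicate block is given beside them. For H2-Ab1 the adjusted p of edgeR was 0.0476 without the block and 0.0177 with it. All 15 pairs of libraries differed by more than sampling noise (chi-square per degree of freedom at least 21.6).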

Additional observations from a re-analysis of the deposited data

How the results depend on the processing

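The log2 fold change of H2-Ab1 was positive under every alternative run. It did not pass with DESeq2-type size factors (2.025, edgeR adjusted p = 0.0514) or with the stricter filter of 5 CPM in 3 libraries (2.04, adjusted p = 0.0524), so that 0 of the 8 genes were called there. Without 1 library it ran from 1.62 to 2.46, and 0 to 1 of the 8 genes were called. With the replicate block it was 2.16 (adjusted p = 0.0177). H2-Aa, H2-Eb1, H2-DMa, Cd74 and Ptprc were not called and were below 0 under each alternative in which they were tested; of these, the stricter filter left Cd74 alone. Of the genes around H2-Ab1, 1 to 2 were called without 1 library. Over all tested genes, 372 were called higher and 58 lower. The counts were 873 and 472 with the replicate block, 739 and 247 with DESeq2, 359 and 65 with limma-voom, and without a filter 109 were lower. Without 1 library 143 to 554 were higher and 19 to 110 lower. The cause of these shifts was not tested. The replicate block changed no call among the 8 genes. Depth limits Cd207, Ciita, H2-Eb1 and the minor class II chains, which had few reads in any library.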
